A study of Mus musculus with 9 samples.

Results

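Histone genes were taken as every row whose symbol begins with Hist1h, Hist2h, Hist3h or Hist4h, or with H2af, which gave 82 of the 46517 genes in the tables. Of these, 71 carry symbols of replication-dependent histones and 11 those of variant histones of the H2A family. GENCODE M21 lists Hist1h2aj, Hist1h2al, Hist3h2bb-ps, H2af-ps and H2afy3 as pseudogenes and 1 of the 2 identifiers named Hist2h2bb as a long noncoding RNA, and all were kept as the symbol rule has them. The replication-dependent genes comprised 6 of class H1, 20 of H2A, 20 of H2B, 12 of H3 and 13 of H4. The rule uses the symbol and no measured value, and it was chosen with earlier results of these data known. RNA was sequenced from duodenal organoids, cultures of intestinal epithelium grown in a gel from crypts, of wild-type C57BL/6J mice whose age is not given in the sources used here. The organoids were cultured at 5% O2 in medium conditioned with Wnt3a, R-spondin 3 and noggin, were broken into separate cells, received adenovirus at 50 particles per cell and were harvested about 72 hours later. Ad-GFP organoids received a virus coding for green fluorescent protein, Ad-hHIF2 organoids a virus coding for human HIF2 and Ad-hHIF1 organoids a virus coding for human HIF1. Both HIF constructs carry proline-to-alanine substitutions that keep them from being degraded when oxygen is present, and all groups share the culture and the delivery by adenovirus. The vectors came from different sources, so that the protein made and any other difference between the vectors cannot be told apart. The model is thus a short forced expression of a human protein, and the share of cells transduced was not measured in these files. Each group had 3 samples, numbered 1, 3 and 4, and the study calls them biological replicates. For the sequenced samples it does not state outright that each came from a separate mouse.

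Replication-dependent histone genes code for the core histones H2A, H2B, H3 and H4, which form the nucleosome, and for the linker histone H1, which binds the DNA between nucleosomes. Cells transcribe them mainly in S phase, when new DNA has to be packaged. Most of their genes have no introns and lie in clusters of near-identical copies. Their mRNAs are the known exception among mRNAs of animal cells in that they end in a conserved stem-loop, bound by the stem-loop binding protein SLBP, in place of a poly(A) tail. Variant histones such as H2A.Z (H2afz and H2afv), macroH2A (H2afy) and H2A.X (H2afx) are placed into chromatin outside DNA replication as well. Most of their genes lie alone, and most of their mRNAs are polyadenylated. The intestinal crypt is among the fastest dividing epithelia of the body. In a bulk sample, fewer dividing cells and less histone mRNA per cell cannot be told apart.

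The stem-loop was found in 43 of the 69 replication-dependent members with a transcript in GENCODE M21 (GRCm38), when the whole of the longest transcript was searched. The letters searched on the sense strand were a first arm of the form GGNNCT, a loop of the form TNTN and a second arm of the form AGNNCC, with the 6 bases of each arm able to pair. They were held by 4 of 6 H1 genes, 11 of 20 H2A, 7 of 18 H2B, 9 of 12 H3 and 12 of 13 H4 genes. Among the 11 variant genes only H2afx held them. Over all 55450 genes with a transcript, 70 held the letters, 0.126%, and 26 of these carried an identifier that no member has. When only the last 300 bases of the transcript were searched, as first planned, 26 of 69 replication-dependent members and 0 of 11 variant members held them, against 34 of all genes (0.0613%). Many models therefore run on beyond the stem-loop, by 4884 bases in Hist1h1d and 2010 in Hist1h2ac, and a model that stops before the stem-loop cannot show it. The most frequent form, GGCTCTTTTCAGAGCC, occurred in 23 members, and a further form, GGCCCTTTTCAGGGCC, occurred in 7 members, all of class H4. The following stem-loops, in capitals with their flanking bases, are those of members whose values are given below, and are shown because the stem-loop is the feature that sets replication-dependent histone mRNAs apart.

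Hist1h1e: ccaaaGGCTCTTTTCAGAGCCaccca
Hist1h2ao: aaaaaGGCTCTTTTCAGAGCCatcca
Hist1h2ap: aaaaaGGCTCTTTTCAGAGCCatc
Hist2h2aa1: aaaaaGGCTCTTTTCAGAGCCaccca
Hist1h2bb: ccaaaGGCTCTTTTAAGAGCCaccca
Hist1h2bf: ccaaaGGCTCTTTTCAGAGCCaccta
Hist1h3b: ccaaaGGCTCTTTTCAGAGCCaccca
Hist1h4h: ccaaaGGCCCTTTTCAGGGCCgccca
Hist2h4: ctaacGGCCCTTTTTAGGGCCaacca
H2afx: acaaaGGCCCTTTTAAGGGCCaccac

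The paralogs Hist1h2ao and Hist1h2ap, the H1 gene Hist1h1e and the H3 gene Hist1h3b all carried the most frequent form. Hist1h2bb carried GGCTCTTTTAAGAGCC, which occurred in 6 members, and Hist2h4 carried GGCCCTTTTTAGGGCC, which occurred in 2. H2afx, a variant gene by symbol, carried a form that no replication-dependent member had, with 822 bases of transcript after it. Hist1h2bc, Hist1h2ai and Hist2h3b, which also appear below, held none of these letters in their transcript models.

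The members sit close together in the genome. On GRCm38, 54 of the replication-dependent genes with coordinates lie on chromosome 13, 11 on chromosome 3, 3 on chromosome 11 and 1 on chromosome 6. The 11 variant genes are spread over 10 chromosomes. Such copies share reads, and the extent was measured as the share of 50-base windows of a member's longest transcript that also occur in a transcript of another gene. The median was 55.0% for replication-dependent genes and 8.0% for variant genes. With windows of 100 bases the medians were 37.1% and 1.0%. RSEM divides a read that fits several transcripts between them and so leaves counts that are not whole. Of the 82 members, 66 had a count off a whole number by more than 0.005 in at least 1 sample, 62 of them replication-dependent, and 56 had it in all 9 samples. Among all genes with a count the share was 34.6%. Values of a single copy are therefore uncertain where its windows are shared, and values summed over a group of linked copies depend less on the division. Whether the counting used strand is not given in the sources used here, so reads of overlapping or antisense genes cannot be told apart either.

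The 9 libraries held 21722618 to 51119041 expected counts. Epas1, the mouse gene for HIF2, was at 1.47 to 2.2 CPM in Ad-GFP and 604.3 to 757.5 CPM in Ad-hHIF2 organoids. Hif1a was at 197.5 to 251.1 CPM in Ad-GFP and 299.4 to 319.2 CPM in Ad-hHIF1 organoids. Each HIF virus codes for the human gene, and reads of the transgene and of the mouse gene were not told apart in these counts. Epas1 was called in Ad-hHIF2 against Ad-GFP at a log2 fold change of 8.60. In Ad-hHIF1 against Ad-GFP neither gene was called (largest log2 fold change 0.49, smallest edgeR adjusted p = 0.487). CPM here are expected counts scaled to each library's size with TMM factors over all 9 samples. The 12 markers of intestinal epithelium summed to 2122 to 2392 CPM in Ad-GFP, 2397 to 2618 in Ad-hHIF2 and 2361 to 2616 in Ad-hHIF1 organoids, with Cdx1 at 0 in all samples. In Ad-hHIF2 against Ad-GFP, 2 of the 9 tested rose (Cdh1 at 0.53 and Gata4 at 0.59 on the log2 scale). Another 2 fell (Epcam, at 1.42 to 3.8 CPM in these groups, by 0.81 and Hnf4a by 0.50). That is 44.4% called, against 29.5% of all genes tested. With total counts only, 4 rose and 0 fell. Epcam was then at -0.57 (edgeR adjusted p = 0.188) and Hnf4a at -0.24 (edgeR adjusted p = 0.333). The part of these markers in the results was not tested. Over all samples, 8 fibroblast markers summed to 9.93 to 19.6, 8 leukocyte markers to 10.5 to 20.9 and 6 endothelial markers to 3.75 to 7.54 CPM. The endothelial sum was 4.03 to 7.54 CPM in Ad-GFP, 3.75 to 4.4 in Ad-hHIF2 and 5.04 to 6.31 in Ad-hHIF1 organoids. Its log2 ratio of Ad-hHIF2 to Ad-GFP was -0.65 and that of the fibroblast sum -0.33, both with overlapping groups. Among their markers, 0 of 2 and 0 of 5 tested passed there, and their part in the results was not tested. The leukocyte sum was 13 to 17.8 CPM in Ad-GFP, 15.7 to 20.9 in Ad-hHIF2 and 10.5 to 13.8 CPM in Ad-hHIF1 organoids. Of its 4 markers tested against Ad-GFP, Csf1r rose by 1.46 and Ptprc fell by 3.92 on the log2 scale in Ad-hHIF2, both at 4.27 CPM or less, and their part in the results was not tested either. Library selection is not given in the sources used here, and 18 genes of RNAs without a poly(A) tail, such as Rn7sk and Rmrp, took 155652 CPM in Ad-hHIF2 replicate 1 and 258842 to 355944 CPM in the other 8 libraries. By group they took 317703 to 355944 CPM in Ad-GFP, 155652 to 318168 in Ad-hHIF2 and 258842 to 282309 in Ad-hHIF1 organoids, so that every Ad-hHIF1 library lay below every Ad-GFP library. Of the 18 genes, 15 had a negative log2 fold change in Ad-hHIF2 (median -0.34, with 2 that fell in the edgeR test) and all 18 in Ad-hHIF1 (median -0.33, with 0 that passed), and their part in the lower values of histone copies was not tested. That library also had the lowest replication-dependent histone sum of its group on the TMM scale, while with total counts it was at 930.4 and replicate 3 was the lowest at 878.0. Gm10800 and Gm26870, which resemble satellite repeats, took 176182 CPM in Ad-hHIF1 replicate 3 and 3310 to 44701 CPM elsewhere. Class sums of replication-dependent genes are also given without Ad-hHIF2 replicate 1, and a call of a named member that is lost without either library is marked as such.

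All members were accounted for. Of the 82, 8 had no count in any sample. These were the replication-dependent Hist1h2aa, Hist1h2aj, Hist1h2ba and Hist2h3c1 and the variant genes H2af-ps, H2afb1, H2afb2 and H2afb3. After the filter on low counts, 70 were tested between Ad-hHIF2 and Ad-GFP, 70 between Ad-hHIF1 and Ad-GFP and 71 between the HIFs. Per kilobase of effective length, the highest mean levels over all 9 samples were those of Hist1h4d at 187.3, Hist2h2aa2 at 176.7, Hist1h4c at 155.6 and Hist1h4m at 139.7 CPM per kb. H2afz was the highest variant gene at 116.8 CPM per kb, near Hist1h4h at 123.8 and above Hist1h1e at 100.6 and Hist1h2bc at 59.1 CPM per kb. The 5 replication-dependent genes with the most counts held 35.4% of the class sum, and H2afz held 54.6% of the variant sum.

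Summed over all 71 replication-dependent genes, histone RNA did not separate the groups. It was at 967.5, 884.3 and 967.8 CPM in Ad-GFP replicates 1, 3 and 4, at 710.8, 880.7 and 945.0 CPM in the Ad-hHIF2 and 897.0, 756.9 and 954.5 CPM in the Ad-hHIF1 replicates. The log2 ratio of the means was -0.15 for Ad-hHIF2 against Ad-GFP and turned to 0.09 with total counts in place of TMM. Without Ad-hHIF2 replicate 1 it was -0.04. The ratio of Ad-hHIF1 to Ad-GFP was -0.11. No test was made of a sum over members, and the spread within a group, an SD of 48.1 CPM for Ad-GFP, 121.0 for Ad-hHIF2 and 101.6 for Ad-hHIF1 (n = 3 each), was of the same order as the differences between means of 939.9, 845.5 and 869.4 CPM, and the samples of the 3 groups overlapped.

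The variant sum was 171.1, 174.9 and 122.6 CPM in Ad-GFP, 182.8, 213.3 and 180.7 CPM in Ad-hHIF2 and 160.6, 143.7 and 157.2 CPM in Ad-hHIF1 organoids. All Ad-hHIF2 samples lay above all samples of the other groups. The log2 ratio to Ad-GFP was 0.30, and 0.00 when only members with whole counts in every sample were summed, which leaves out H2afz. It was 0.15 without Ad-GFP replicate 4. The mean of H2afz alone, whose reads are shared, was 77.2 CPM in Ad-GFP and 119.1 CPM in Ad-hHIF2 organoids.

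**Figure D1:**
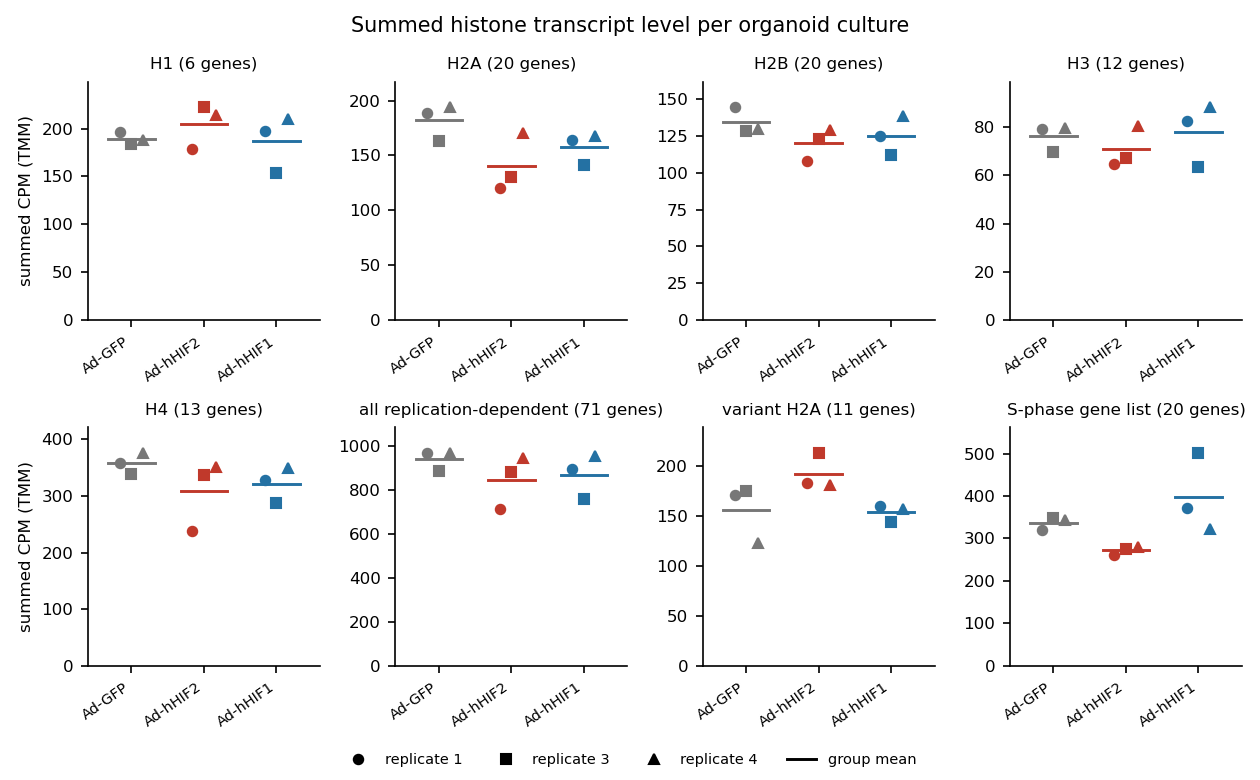
Summed CPM of each replication-dependent class, of all of them, of the variant H2A genes and of the 20 S-phase genes in every sample (points, 3 per group) with group means (lines). Replication-dependent classes overlap between all groups, and the variant sum of Ad-hHIF2 organoids (180.7 to 213.3 CPM) lies above the other groups.

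By class, the H2A sum was at 188.4, 163.2 and 194.1 CPM in Ad-GFP and 120.5, 130.6 and 170.1 CPM in Ad-hHIF2 organoids. Its log2 ratio was -0.37, and the groups overlapped because Ad-hHIF2 replicate 4 lay above Ad-GFP replicate 3. The H2A ratio with total counts only was -0.13, again with overlap. The H4 sum, the largest at 37.2% of replication-dependent counts, had a log2 ratio of -0.21, with 338.8 to 376.1 CPM in Ad-GFP and 238.6 to 351.3 CPM in Ad-hHIF2 organoids. The ratios were -0.16 for H2B, -0.11 for H3 and 0.11 for H1, and each of these classes overlapped as well. Without Ad-hHIF2 replicate 1 the ratios were -0.28 for H2A, -0.06 for H4, -0.09 for H2B, -0.05 for H3 and 0.20 for H1. Leaving out Ad-hHIF2 replicate 4 instead gave -0.54 for H2A, -0.31 for H4, -0.21 for H2B, -0.21 for H3 and 0.08 for H1. The H1 ratio was 0.05 without Ad-hHIF2 replicate 3. As shares of the replication-dependent sum, H1 was at 20.2% ± 0.701 (SD, n = 3) in Ad-GFP, 24.3% ± 1.47 in Ad-hHIF2 organoids and 21.4% ± 0.992 in those with Ad-hHIF1. H2A was at 19.3% ± 0.813, 16.6% ± 1.61 and 18.1% ± 0.535 in the same order. Shares within a sum do not depend on the scaling between libraries.

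Which histone genes differ when HIF2 is forced on was asked gene by gene. Between Ad-hHIF2 and Ad-GFP organoids, 3 of 70 tested members rose and 6 fell at an adjusted p below 0.05 (edgeR quasi-likelihood test). That is 12.9% of the members tested, against 29.5% of all 14987 genes tested, of which 15.9% rose and 13.6% fell. At least a 2-fold change with the same p was met by 0 rising and 2 falling members, where the background was 2.9% and 3.83%. The median log2 fold change of the members was -0.14, against -0.01 over all genes tested. All Ad-hHIF2 samples exceeded all Ad-GFP samples for 6 members and fell short of them for 13, where 23.4% and 22.4% of all genes did so. An unadjusted p below 0.05 was reached by 19 members, against 41.2% of all genes. The 7 replication-dependent calls were 2 rising and 5 falling among 64 tested (10.9%), and the variant calls were 1 rising and 1 falling among 6. By shared sequence, called members numbered 2 of 11 tested with under 10% of windows shared, 3 of 24 with 10 to 50% and 4 of 33 with 50% or more. Scaling by total counts moved the median of all genes to 0.24 and the calls to 6 rising and 6 falling replication-dependent and 2 rising and 0 falling variant genes, and changes below are relative to the TMM scaling.

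**Figure D2:**
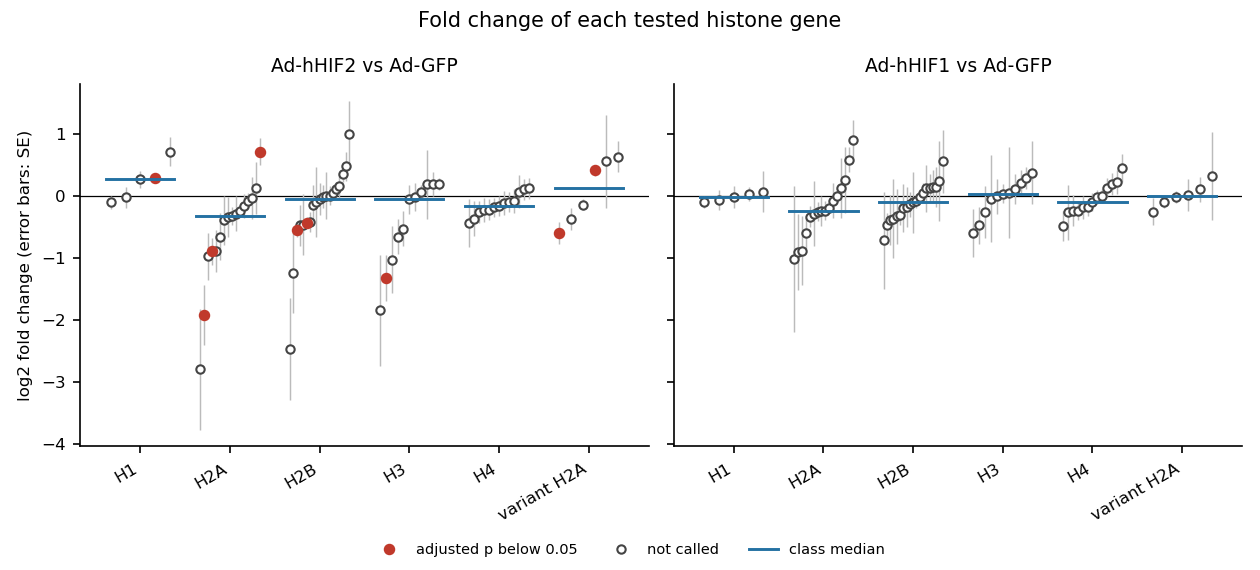
Log2 fold change of every tested member by class against Ad-GFP, for Ad-hHIF2 (left) and Ad-hHIF1 (right), with error bars of 1 SE, filled points for called members (adjusted p below 0.05, edgeR) and lines at class medians. In Ad-hHIF2 organoids members range from -2.8 to 1.0 and the H4 members lie between -0.44 and 0.12 with none called, and in Ad-hHIF1 organoids none is called.

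**Figure D3:**
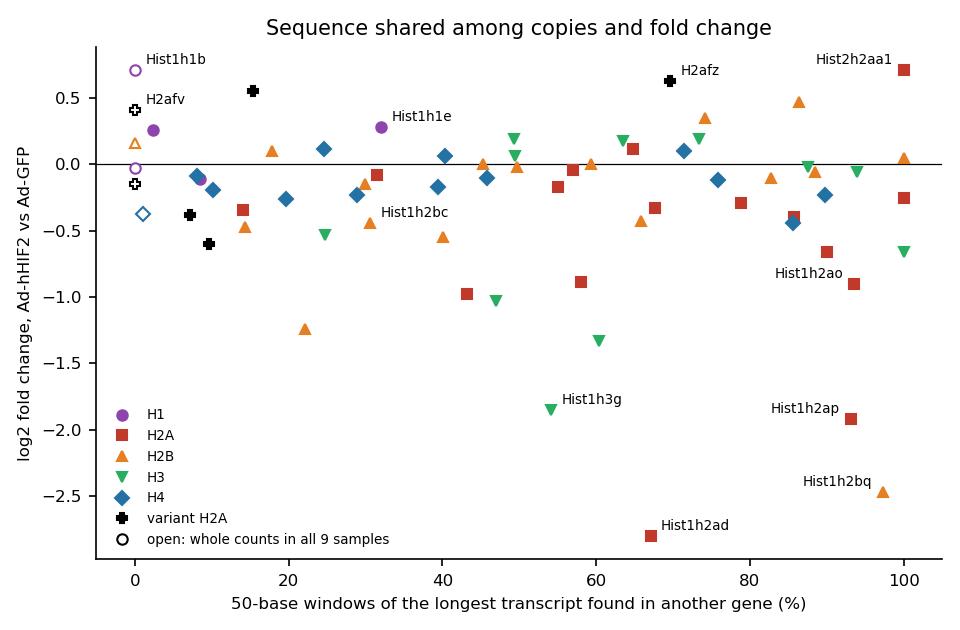
Log2 fold change of each tested member in Ad-hHIF2 against Ad-GFP organoids, against the share of the 50-base windows of its longest transcript found in another gene (%), with open symbols for members whose counts were whole in all 9 samples. The lowest values, those of Hist1h2ad at -2.80 and Hist1h2bq at -2.47, did not pass the test and belong to copies that share over 50% of their windows.

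Among the H1 genes, which code for linker histones, Hist1h1e rose. It lies at chr13:23620629-23622558 on the minus strand. Its level was 57.3, 57.6 and 57.2 CPM in Ad-GFP, 66.6, 71.7 and 70.1 in Ad-hHIF2 and 61.6, 40.1 and 67.9 in Ad-hHIF1 organoids. Every Ad-hHIF2 sample was above every Ad-GFP sample, while Ad-hHIF1 replicate 3 stood below all others. Relative to Ad-GFP, the Ad-hHIF2 samples had a log2 fold change of 0.28 with its standard error (SE 0.0674, edgeR adjusted p = 0.0148). The adjusted p was 0.22 with all 9 samples in one edgeR fit, 0.0545 without Ad-GFP replicate 3 and 0.0569 without Ad-hHIF2 replicate 3. Of its windows, 23.8% are shared with Hist1h2be, whose longest model overlaps in sequence. Hist1h1c, the member of class H1 with the most counts, was at 84.8, 77.8 and 72.4 CPM in Ad-GFP and 63.1, 78.4 and 76.0 in Ad-hHIF2 organoids, a log2 fold change of -0.11 (edgeR adjusted p = 0.479). Hist1h1d, at 40.3, 36.6 and 41.2 CPM in Ad-GFP and 36.3, 53.6 and 51.2 in Ad-hHIF2 organoids, had a log2 fold change of 0.26 (edgeR adjusted p = 0.202), and without Ad-hHIF2 replicate 1 it was 0.44 (edgeR adjusted p = 0.0103). For Hist1h1d it was 0.49 with total counts only (edgeR adjusted p = 0.0328) and 0.29 without the count filter (edgeR adjusted p = 0.0203). Hist1h1b, which shares no window, was at 2.88 to 3.9 CPM in Ad-GFP and 3.8 to 6.46 in Ad-hHIF2 organoids, with an adjusted p of 0.0513 (edgeR). The median over the 5 H1 genes tested was 0.26.

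Among the H2A genes, 1 of 16 tested rose and 2 fell, with a median log2 fold change of -0.33. The 2 that fell lie near each other, with Hist1h4m and Hist1h4n between them, and are Hist1h2ao (chr13:21810465-21810944, plus strand) and Hist1h2ap (chr13:21833026-21833507, minus strand). Hist1h2ao was at 19.8, 20.1 and 27.8 CPM in Ad-GFP, 11.2, 8.9 and 16.1 in Ad-hHIF2 and 14.8, 18.2 and 20.2 in Ad-hHIF1 organoids. Its Ad-hHIF2 samples lay below all Ad-GFP samples, with a log2 fold change of -0.90 (SE 0.218, edgeR adjusted p = 0.0148), and without Ad-hHIF2 replicate 1 the adjusted p was 0.0529. Hist1h2ap was at 5.6, 2.9 and 10.8 CPM in Ad-GFP, 2.51, 1.08 and 1.42 in Ad-hHIF2 and 4.88, 0.935 and 4.19 in Ad-hHIF1 organoids. The estimate was a log2 fold change of -1.92 (SE 0.485, edgeR adjusted p = 0.0181), and the adjusted p was 0.0682 without Ad-hHIF2 replicate 3 and 0.0652 without Ad-hHIF2 replicate 4. Because 93.5% of Hist1h2ao windows occur in Hist1h2ap, these are not 2 separate measurements.

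When the 12 Hist1 H2A copies linked by at least 50% of shared windows were summed, the group as a whole was at a lower level on the TMM scale. The sum was 62.6, 48.3 and 73 CPM in Ad-GFP, 28.7, 27.3 and 46.1 in Ad-hHIF2 and 51.6, 36 and 59 in Ad-hHIF1 organoids. All Ad-hHIF2 samples lay below all Ad-GFP samples, and the Ad-hHIF1 samples overlapped both. The log2 ratio was -0.85 for Ad-hHIF2 against Ad-GFP, and with total counts only it was -0.60 and the groups overlapped, with Ad-hHIF2 replicate 4 at 47.3 and Ad-GFP replicate 3 at 45.3. Without Ad-hHIF2 replicate 1 it was -0.74. For Ad-hHIF1 against Ad-GFP it was -0.33, beside -0.29 for the sum of the 18 RNAs without a poly(A) tail, which was at -0.41 in Ad-hHIF2. The grouping was made after the values were seen, so no test is given. The division of reads among these copies leaves the sum as it is, but the copies also share windows with other members, such as H2afx and Hist2h2aa2, and with 26 to 28 genes outside the members each, so the sum still depends on that division.

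The H2A gene that rose, Hist2h2aa1 on chromosome 3 (96245497 to 96246082), shares all of its windows with other genes. It was at 2.93, 3.27 and 4.12 CPM in Ad-GFP, 4.4, 5.26 and 7.03 in Ad-hHIF2 and 5.02, 5.55 and 4.72 in Ad-hHIF1 organoids, a log2 fold change of 0.71 (SE 0.222, edgeR adjusted p = 0.0419). Of these windows, 89.2% occur in Hist2h2aa2. That copy, with the most counts of class H2A, was at 82.5, 72.8 and 71.8 CPM in Ad-GFP and 57.0, 61.7 and 71.4 in Ad-hHIF2 organoids, a log2 fold change of -0.25 (edgeR adjusted p = 0.0954), or -0.34 without Ad-hHIF2 replicate 4 (edgeR adjusted p = 0.0497). The sum of both with the pseudogene Hist1h2al was 83.1 to 91.5 CPM in Ad-GFP and 66.3 to 84.7 in Ad-hHIF2 organoids, a log2 ratio of -0.21 with overlapping groups. The call of Hist2h2aa1 was lost without Ad-GFP replicate 1 or 3 and without Ad-hHIF2 replicate 3 or 4, at adjusted p between 0.0859 and 0.134 (edgeR). Hist2h2ac, at 14.5 to 20.8 CPM in Ad-GFP and 11.2 to 18.5 in Ad-hHIF2 organoids, had a log2 fold change of -0.17 (edgeR adjusted p = 0.561). With 1 sample left out, that of Hist2h2ac ran from -0.34 to 0.02.

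**Figure D4:**
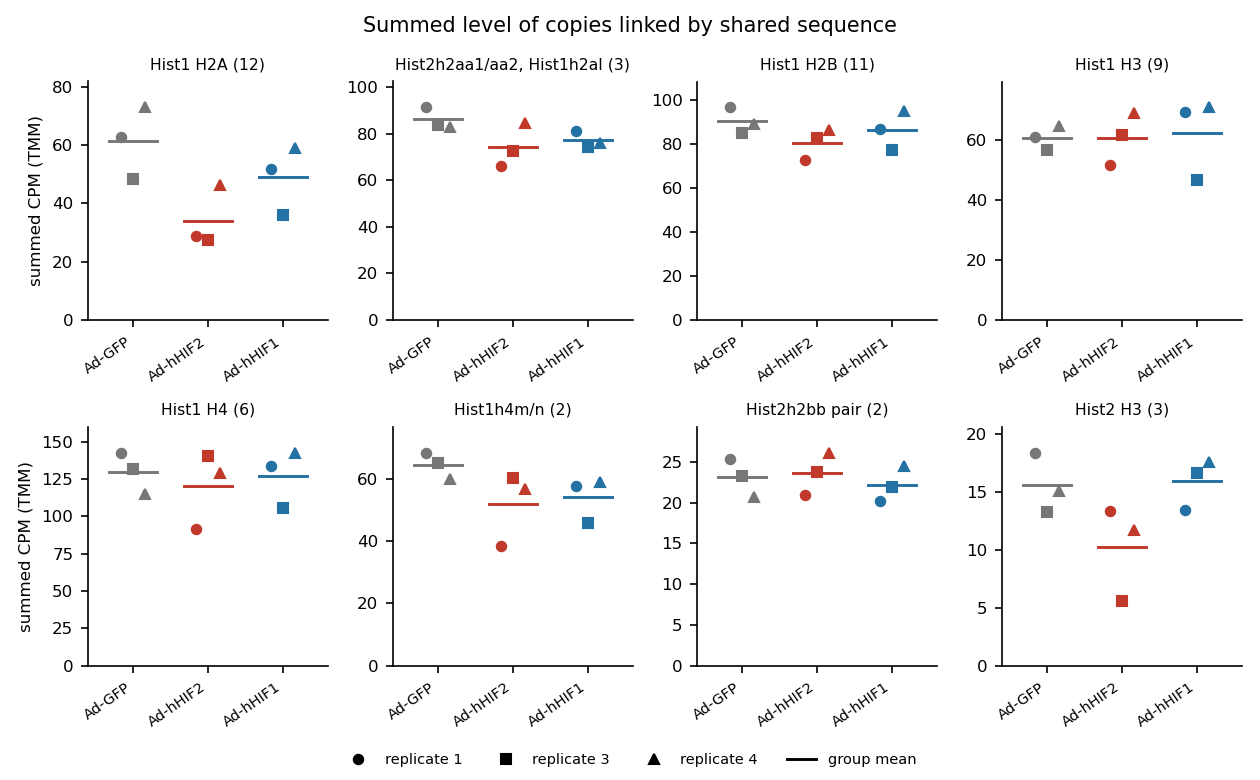
Summed CPM in every sample of groups of copies linked by at least 50% of shared 50-base windows, with group means (lines). The 12 linked Hist1 H2A copies are at 27.3 to 46.1 CPM in Ad-hHIF2 and 48.3 to 73 CPM in Ad-GFP organoids, groups that overlap with total counts only, whereas the 9 linked Hist1 H3 copies overlap with a log2 ratio of -0.00.

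Of 19 H2B genes tested, 0 rose and 2 fell, and their median was -0.06. Hist1h2bc (chr13:23684199-23692908, plus strand) was at 41.8, 38.6 and 36.2 CPM in Ad-GFP, 26.7, 27.6 and 31.4 in Ad-hHIF2 and 35.8, 38.5 and 39.8 in Ad-hHIF1 organoids. The Ad-hHIF2 samples stood apart below both other groups, which overlapped. The log2 fold change was -0.44 (SE 0.089, edgeR adjusted p = 0.00661), and none of the 6 left-out samples ended the call. With total counts only it was -0.19 (edgeR adjusted p = 0.451). Of its windows 30.6% are shared, with transcripts of 220 genes, most of them outside the members. Its longest transcript model has 1156 bases, which is shorter than the stretch that the gene spans. Hist1h2bb (chr13:23746734-23747241, plus strand) was at 16, 13.5 and 13.1 CPM in Ad-GFP, 8.5, 10.4 and 10.1 in Ad-hHIF2 and 10.8, 7.27 and 12.5 in Ad-hHIF1 organoids. Both HIF groups lay below Ad-GFP in every sample. The log2 fold change was -0.55 for Ad-hHIF2 (SE 0.124, edgeR adjusted p = 0.0108) and -0.47 for Ad-hHIF1 (edgeR adjusted p = 0.578), and with total counts only the former was -0.31 (edgeR adjusted p = 0.244). The linked group of 11 Hist1 H2B copies, which includes Hist1h2bc, was at 84.9 to 96.6 CPM in Ad-GFP and 72.4 to 86.4 in Ad-hHIF2 organoids, with overlap and a log2 ratio of -0.16. Hist1h2be was at 14.4 to 15.5 CPM in Ad-GFP and 13.5 to 18.9 in Ad-hHIF2 organoids. The higher of the 2 identifiers named Hist2h2bb was at 20.4 to 24.5 CPM in Ad-GFP and 20.5 to 25.4 in Ad-hHIF2 organoids.

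Of 11 H3 genes tested, Hist1h3b (chr13:23752267-23752886, plus strand) fell. It was at 2.65, 1.26 and 3.3 CPM in Ad-GFP, 0.925, 0.951 and 0.967 in Ad-hHIF2 and 1.55, 2.82 and 1.67 in Ad-hHIF1 organoids, a log2 fold change of -1.33 (SE 0.375, edgeR adjusted p = 0.028). This is among the lowest levels tested, 60.4% of its windows are shared, and leaving out Ad-GFP replicate 1 or 4 or any Ad-hHIF2 sample raised the adjusted p to between 0.0662 and 0.0823. The 9 linked Hist1 H3 copies, Hist1h3b included, summed to 56.6 to 64.4 CPM in Ad-GFP and 51.4 to 68.7 in Ad-hHIF2 organoids, a log2 ratio of -0.00. Hist1h3e was at 16.9, 15.5 and 17.0 CPM in Ad-GFP and 17.0, 19.6 and 19.5 in Ad-hHIF2 organoids (log2 fold change 0.19, edgeR adjusted p = 0.163). Hist1h3f was at 10 to 16 and 11.3 to 17.3 CPM in the same groups. Hist2h3b was at 17.5, 13.0 and 14.3 CPM in Ad-GFP, 12.5, 5.19 and 10.7 in Ad-hHIF2 and 13.0, 15.4 and 17.4 in Ad-hHIF1 organoids. Its log2 fold change to Ad-GFP was -0.66 (edgeR adjusted p = 0.108), and the adjusted p was 0.0312 with DESeq2, 0.0178 under a replicate block and 8.08e-06 without the count filter. Leaving out Ad-hHIF2 replicate 3, the low sample, brought Hist2h3b to -0.36, and leaving out any other sample gave up to -0.91, with no call.

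None of the 13 H4 genes tested passed in either direction, and none had an unadjusted p below 0.05. Their log2 fold changes ran from -0.44 to 0.12 with a median of -0.17, and the smallest adjusted p was 0.289 (edgeR). Hist1h4d was at 46.4, 43.5 and 58.9 CPM in Ad-GFP and 35.9, 43.8 and 49.7 in Ad-hHIF2 organoids, a log2 fold change of -0.19 whose interval of 2 standard errors ran from -0.49 to 0.10. Hist1h4h was at 49.1, 44.1 and 39.1 CPM in Ad-GFP and 30.4, 44.7 and 47.7 in Ad-hHIF2 organoids, with an interval from -0.43 to 0.22. Hist2h4 (chr3:96261682-96263311, minus strand) shares 1.0% of its windows and had whole counts. It was at 55.6, 54.6 and 106.2 CPM in Ad-GFP, 43.7, 48.8 and 73.7 in Ad-hHIF2 and 49.3, 47.9 and 56.8 in Ad-hHIF1 organoids. Replicate 4 was the highest of its group in all 3 groups, most of all in Ad-GFP. Its log2 fold change in Ad-hHIF2 was -0.37 (edgeR adjusted p = 0.355) and, without Ad-GFP replicate 4, 0.02, and with all samples it was called at -0.34 under a replicate block (edgeR adjusted p = 0.0226) and without the count filter (edgeR adjusted p = 0.00473).

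Among the 9 called members, the variant gene H2afv lost its call in the fewest alternative fits. H2afv, which codes for an H2A.Z protein (chr11:6427229-6444443, minus strand), was at 14, 15 and 13.2 CPM in Ad-GFP, 18.0, 17.9 and 20.3 in Ad-hHIF2 and 13.0, 14.2 and 14.5 in Ad-hHIF1 organoids. Its Ad-hHIF2 samples lay above all others, and the Ad-GFP and Ad-hHIF1 samples overlapped. Against Ad-GFP the log2 fold change was 0.41 (SE 0.0911, edgeR adjusted p = 0.01). None of its windows occurs in another gene and its counts were whole. The change is below 2-fold. Of 14 alternative fits, only limma on log2(TPM + 1) lost the call, at 0.77 (limma adjusted p = 0.299), where limma called 3 of all 14987 genes.

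H2afz, the other H2A.Z gene (chr3:137864487-137866922, plus strand), was at 91.2, 95.9 and 44.6 CPM in Ad-GFP, 109.3, 141.7 and 106.2 in Ad-hHIF2 and 83.7, 71.2 and 78.7 in Ad-hHIF1 organoids. Its Ad-hHIF2 samples exceeded all 6 others, and Ad-GFP replicate 4 was far below its group. The log2 fold change was 0.63 (SE 0.254, edgeR adjusted p = 0.0964), above the threshold, and 0.87 (edgeR adjusted p = 0.000108) with total counts only. A replicate block gave 0.69 (edgeR adjusted p = 0.0193), and the fit without the count filter gave 0.66 (edgeR adjusted p = 2.09e-09). Without Ad-GFP replicate 4, the log2 fold change of H2afz was 0.36. Of its windows 69.6% are shared, with 6 genes outside the members. H2afx, whose product H2A.X is phosphorylated at DNA breaks, fell (chr9:44334694-44336077, plus strand). It was at 5.59, 6.27 and 6.9 CPM in Ad-GFP, 5.0, 3.87 and 3.37 in Ad-hHIF2 and 6.38, 3.75 and 5.43 in Ad-hHIF1 organoids, a log2 fold change of -0.60 (SE 0.178, edgeR adjusted p = 0.0335). The adjusted p was 0.0663 in the 9-sample edgeR fit and between 0.0738 and 0.105 without Ad-GFP replicate 3 or 4 or Ad-hHIF2 replicate 3 or 4. Scaling by total counts gave H2afx a log2 fold change of -0.33 (edgeR adjusted p = 0.318), and a replicate block gave an adjusted p of 0.0508. H2afy, which codes for macroH2A and shares no window, was at 39.6, 37.5 and 46.2 CPM in Ad-GFP and 37.6, 36.3 and 36.7 in Ad-hHIF2 organoids (log2 fold change -0.15, interval of 2 standard errors -0.33 to 0.02). H2afj was at 19.9, 19.4 and 11.5 CPM in Ad-GFP and 12.5, 13.1 and 13.5 in Ad-hHIF2 organoids, with a log2 fold change of -0.38 (edgeR adjusted p = 0.147). Without Ad-GFP replicate 4, the log2 fold change of H2afj was -0.58 (edgeR adjusted p = 0.00137).

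**Figure D5:**
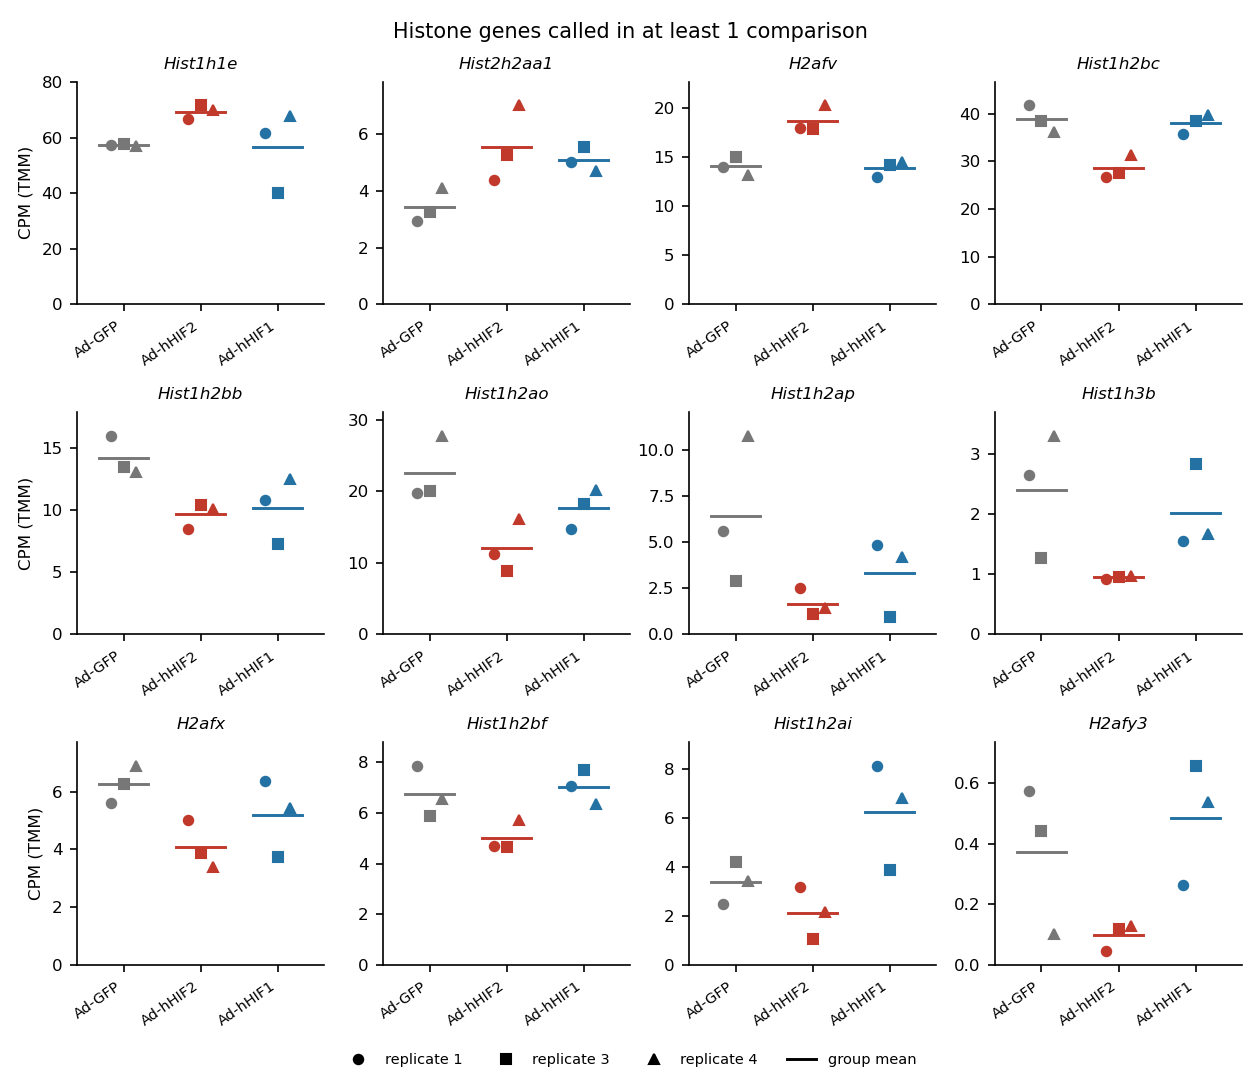
CPM in every sample (points, 3 per group, lines at the group mean) of the 12 members called in at least 1 comparison. H2afv, Hist1h2bc, Hist1h2bf and Hist1h3b separate Ad-hHIF2 from both other groups, with H2afv at 17.9 to 20.3 CPM and Hist1h2bc at 26.7 to 31.4 CPM in Ad-hHIF2 organoids.

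Whether HIF1 moved the same genes was compared against the same 3 Ad-GFP samples. None of the 70 tested members passed between Ad-hHIF1 and Ad-GFP organoids in the edgeR quasi-likelihood test, where 0% of all 15233 genes tested passed. At an unadjusted p below 0.05 there were 5 members, against 8.59% of all genes, and their smallest adjusted p was 0.518. DESeq2 and limma called 0 members, and edgeR without the count filter called 3. These were Hist1h2ai at 0.91, Hist1h2ap at -0.89 and Hist2h4 at -0.48 on the log2 scale, where 1.29% of all 29741 genes passed. In the filtered fit without Ad-GFP replicate 4, Hist1h2ap was at -0.33 and Hist2h4 at -0.10. No left-out sample brought a call. For H2afv the log2 fold change was -0.02 (SE 0.0986, edgeR adjusted p = 0.965), with an interval of 2 standard errors from -0.22 to 0.18. For Hist1h2bc it was -0.03 (SE 0.0822, edgeR adjusted p = 0.918), with an interval from -0.20 to 0.13. The common biological coefficient of variation was 0.240 in this comparison and 0.165 between Ad-hHIF2 and Ad-GFP.

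Both HIFs were then set against each other in the fit of all 9 samples. Of 71 members tested, 1 was higher and 4 were lower under HIF2 than under HIF1 (7.04%), against 25.6% of all 15592 genes tested, of which 13.7% were higher and 11.9% lower. One of the 4, H2afy3, was too low to be tested between Ad-hHIF2 and Ad-GFP and passed the count filter here through the groups in which it is higher, so its call is given as a description. H2afv was higher, with a log2 fold change of 0.43 (SE 0.0887, edgeR adjusted p = 0.00563). Hist1h2bc was lower at -0.42 (SE 0.0848, edgeR adjusted p = 0.0052), and with total counts only at -0.24 (edgeR adjusted p = 0.265). Hist1h2ai (chr13:21716422-21716814, plus strand) was at 8.14, 3.86 and 6.8 CPM in Ad-hHIF1, 3.18, 1.06 and 2.15 in Ad-hHIF2 and 2.48, 4.2 and 3.43 in Ad-GFP organoids. The log2 fold change between the HIFs was -1.56 (SE 0.398, edgeR adjusted p = 0.0165), and the adjusted p was 0.0532 without Ad-hHIF2 replicate 4 and 0.0597 without Ad-hHIF1 replicate 1. Of the windows of Hist1h2ai, 90.1% are shared. The sum of the 12 linked Hist1 H2A copies, Hist1h2ai included, had a log2 ratio between the HIFs of -0.52, with overlapping groups.

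Hist1h2bf (chr13:23573736-23574196, minus strand) was at 7.06, 7.71 and 6.36 CPM in Ad-hHIF1, 4.7, 4.64 and 5.71 in Ad-hHIF2 and 7.87, 5.89 and 6.54 in Ad-GFP organoids. The difference between the HIFs was -0.49 (SE 0.154, edgeR adjusted p = 0.0409), and it was lost without Ad-hHIF2 replicate 1 or 3 or Ad-hHIF1 replicate 1 or 3, at adjusted p of 0.0807 to 0.137. For Hist1h2bf it was also lost with total counts only, at -0.31 (edgeR adjusted p = 0.296), without the count filter (edgeR adjusted p = 0.0802) and under a replicate block (edgeR adjusted p = 0.0696). H2afy3, a processed pseudogene by its annotation (chr15:62218221-62219332, minus strand), was below 1 CPM in all 9 samples. It was at 0.262, 0.657 and 0.537 CPM in Ad-hHIF1 and 0.0457, 0.118 and 0.129 in Ad-hHIF2 organoids, with a log2 fold change of -2.28 (SE 0.748, edgeR adjusted p = 0.048). Leaving out any of the samples other than Ad-GFP replicate 4 lost that call, at adjusted p of 0.0567 to 0.191. Without Ad-hHIF1 replicate 3, the library with the satellite-like reads, 3 replication-dependent genes were lower and H2afv remained called.

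Genes that act on histones were taken as lists beside the members. Of 16 genes of histone transcription and histone mRNA processing, 3 rose and 2 fell between Ad-hHIF2 and Ad-GFP organoids, 31.2% against the background of 29.5%. The 3 that rose were Zcchc6, a uridylating enzyme that marks histone mRNA for decay (log2 fold change 0.66, edgeR adjusted p = 0.000521), Casp8ap2, a factor of the histone locus body (0.48, edgeR adjusted p = 0.0083), and Sympk, a scaffold of the cleavage machinery (0.35, edgeR adjusted p = 0.00803). The 2 that fell were Cstf2, a cleavage factor (-0.84, edgeR adjusted p = 0.000597), and Pou2f1, which binds the octamer of H2B promoters (-0.36, edgeR adjusted p = 0.013, and -0.10 with adjusted p = 0.733 with total counts only). Slbp, the stem-loop binding protein itself, had a log2 fold change of 0.24 (edgeR adjusted p = 0.0553). Among 24 rows of histone chaperones and remodellers, 2 rose and 2 fell (16.7%), which became 4 and 0 with total counts only, as the list of 16 became 5 rising and 1 falling. Ubn1, a subunit of the chaperone that deposits H3.3, rose by 0.53 (edgeR adjusted p = 0.00412), and Supt16, a subunit of FACT, rose as well. Chaf1b, a subunit of the replication-coupled chaperone CAF1, fell by 0.50 on the log2 scale (edgeR adjusted p = 0.02), and the adjusted p was 0.0786 without Ad-hHIF2 replicate 1 and 0.0638 without Ad-hHIF2 replicate 3. Scaled by total counts, Chaf1b was at -0.26 (edgeR adjusted p = 0.346). Nasp, a chaperone of H1 and H3, had a log2 fold change of -0.33 (edgeR adjusted p = 0.0493), and each of the 6 samples left out lost that call, at adjusted p of 0.0624 to 0.188, as did total counts only at -0.09 (edgeR adjusted p = 0.79).

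Of 20 S-phase genes, 2 rose and 5 fell in Ad-hHIF2 against Ad-GFP organoids (35%, against 29.5% of all genes tested). Those that fell were Mcm2 and Mcm6 of the replicative helicase, the sliding clamp Pcna, the thymidylate synthase Tyms and the polymerase subunit Pola1. With total counts only, 4 of the 20 rose and 1, Tyms, fell, and the other 4 that fell on the TMM scale were at -0.05 for Mcm2, -0.06 for Mcm6, -0.27 for Pcna and -0.44 for Pola1 (edgeR adjusted p of 0.868, 0.833, 0.272 and 0.141). Tyms was at 51.2, 70 and 71.4 CPM in Ad-GFP and 22.8, 32.5 and 38.7 in Ad-hHIF2 organoids, a log2 fold change of -1.03 (edgeR adjusted p = 0.0053), and in the fit of all 9 samples its adjusted p was 0.118, where the Ad-hHIF1 samples spread from 41.1 to 196.6 CPM. Rrm2 (0.79, edgeR adjusted p = 0.00418) and Rrm1, the subunits of ribonucleotide reductase, rose. The sum of the 20 genes was 318.9 to 347.6 CPM in Ad-GFP, 260.4 to 280.6 in Ad-hHIF2 organoids and 321.4 to 501.5 in those with Ad-hHIF1. Ad-hHIF2 thus lay below both other groups in every sample, while the replication-dependent histone sum overlapped. Tyms is part of this sum, at 51.2 to 71.4 CPM in Ad-GFP, 22.8 to 38.7 in Ad-hHIF2 and 41.1 to 196.6 in Ad-hHIF1 organoids. A sum without Tyms was not made. With total counts only, the S-phase log2 ratio of Ad-hHIF2 to Ad-GFP went from -0.31 to -0.05 and the groups overlapped as well. Among polyadenylated histone genes outside the symbol rule, H3f3a, which codes for H3.3, rose. Its level was 117.4 ± 11.1 in Ad-GFP and 142.2 ± 2.37 CPM in Ad-hHIF2 organoids (SD, n = 3 each), and its log2 fold change 0.28 (edgeR adjusted p = 0.0368), and with any of the 6 samples left out the adjusted p was 0.051 to 0.0976. H3f3b, which codes for the same protein, was at 204.2 ± 25.6 and 182.7 ± 7.92 CPM (SD, n = 3 each), with a log2 fold change of -0.16 (edgeR adjusted p = 0.27), or -0.25 without Ad-GFP replicate 4 (edgeR adjusted p = 0.0472). H1f0, the linker histone of non-dividing cells, was at 203.8 ± 8.81 and 197.8 ± 2.62 CPM (SD, n = 3 each). Cenpa, the centromeric H3, was at 5.78 ± 1.78 and 3.85 ± 0.226 CPM (SD, n = 3 each; edgeR adjusted p = 0.0773), and it was called with DESeq2 (adjusted p = 0.0441), without the count filter (edgeR adjusted p = 0.0214) and without Ad-GFP replicate 4 (-0.81, edgeR adjusted p = 0.00422). In the comparison of Ad-hHIF1 with Ad-GFP, 0 genes of each of these lists passed in the filtered edgeR fit. Without the count filter Tyms passed at 0.75 on the log2 scale (edgeR adjusted p = 4.57e-09), where 1.29% of all genes passed. With 1 sample left out of the filtered fit, its log2 fold change ran from 0.04 to 1.16.

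Promoters of RefSeq (GRCm38.p6) were matched for 65 members, 58 of them replication-dependent and 7 variant. Within 250 bases before to 50 after the start, TATAAA on either strand was present in 58.6% of replication-dependent promoters, 0% of variant promoters and 13.6% of all 32851 promoters. CCAAT was present in 84.5%, 85.7% and 37.4%. It occurred in every matched H1, H2A, H2B and H3 promoter and in 3 of 12 H4 promoters. The octamer ATTTGCAT was present in 20.7% of replication-dependent promoters, namely 7 H2A and 5 H2B genes, and in 1.74% of all. The core letters of the hypoxia response element, ACGTG, were in 22.4% of replication-dependent and 28.6% of variant promoters against 19.6% of all, and GCGTG in 25.9% and 28.6% against 32.4%. A match of letters is a description and not a binding site. The 200 bases before the start of 4 members are printed, 5′ to 3′ on the strand of the gene, with the TATAAA letters, the CCAAT letters and the octamer ATTTGCAT in capitals on either strand, so that CCAAT on the other strand reads ATTGG. They are a falling H2B gene at chr13:23746534-23746733, the rising H1 gene at chr13:23622559-23622758, an H4 gene with no call at chr13:23530844-23531043 and the rising variant gene at chr11:6444444-6444643.

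Hist1h2bb: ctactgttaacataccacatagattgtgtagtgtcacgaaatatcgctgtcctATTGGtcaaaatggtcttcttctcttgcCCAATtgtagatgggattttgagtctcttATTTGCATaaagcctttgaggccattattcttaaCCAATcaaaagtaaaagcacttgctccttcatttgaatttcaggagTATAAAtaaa
Hist1h1e: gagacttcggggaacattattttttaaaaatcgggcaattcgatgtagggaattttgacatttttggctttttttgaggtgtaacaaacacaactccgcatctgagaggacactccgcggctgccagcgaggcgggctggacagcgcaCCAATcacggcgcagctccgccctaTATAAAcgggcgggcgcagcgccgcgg
Hist1h4h: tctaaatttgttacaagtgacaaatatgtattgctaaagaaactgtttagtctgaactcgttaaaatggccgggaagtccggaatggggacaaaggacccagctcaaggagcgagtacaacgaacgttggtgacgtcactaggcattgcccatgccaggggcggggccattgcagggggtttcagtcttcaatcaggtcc
H2afv: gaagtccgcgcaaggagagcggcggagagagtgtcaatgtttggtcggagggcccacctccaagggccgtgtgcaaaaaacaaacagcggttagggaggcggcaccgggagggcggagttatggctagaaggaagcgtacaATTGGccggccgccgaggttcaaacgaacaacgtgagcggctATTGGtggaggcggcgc

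In Hist1h2bb the TATA letters lie 10 bases and the octamer 90 bases before the annotated start. In Hist1h1e the TATA letters lie 27 and CCAAT 52 bases before it. Hist1h4h holds none of the 3 motifs in this stretch, and H2afv holds CCAAT letters and, not marked, the letters ACGTG.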

How the data were processed

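RNA-seq of 9 samples, 3 per group, was used. Reads of low quality had been discarded by the authors, and RSEM had estimated transcript abundance. The aligner, genome build, read length, strand and library selection are not given in the sources used here. The deposited expected counts, one table per sample, are estimated counts that need not be whole. They were rounded and tested with edgeR 4.0.16 in R 4.3.3 (filterByExpr, TMM, quasi-likelihood test, Benjamini-Hochberg adjustment over all genes tested), in separate fits of 6 samples for each HIF against Ad-GFP and 1 fit of all 9 for the HIFs. A call is an adjusted p below 0.05. The deposited TPM, computed by the authors with RSEM, were used on log2(TPM + 1) in limma 3.58.1 only as an alternative, and DESeq2 1.42.0 was another. The edgeR step was tested on simulated data. CPM are expected counts scaled to TMM library sizes over all 9 samples. Before that scaling the libraries held 21722618 to 51119041 expected counts. P-values measure the spread between these samples, which may in part be technical, and an exact permutation test of 3 against 3 could not go below 0.10. Sums over members carry no test.

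Sequences were read from GENCODE M21 transcripts (GRCm38), which held identifiers of 46005 genes of the tables and 80 members (the others are Hist1h2bh and Hist1h2bm), and from RefSeq promoters (GRCm38.p6). The 100 bases after each transcript's end, also planned for the stem-loop search, were not searched because no genome of the build was used here. Named members are the 3 with the most counts in each class and those called in each comparison, and a few others are named in counts. Members and lists were chosen with earlier results of these data known. Alternatives covered the count filter, scaling, tool, samples in the fit, the replicate number as a block, each sample left out and the 2-fold threshold. The sums over linked copies, the search of whole transcripts and the alternatives for genes outside the members were added after seeing the data.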

Additional observations from a re-analysis of the deposited data

How the results depend on the processing

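Between Ad-hHIF2 and Ad-GFP organoids, the 2 rising replication-dependent genes became 5 without the count filter, 6 with total counts only, 0 with limma on log2(TPM + 1), 1 with all 9 samples in one fit and 0 at 2-fold, and the 5 falling genes became 13 without the filter, 9 with DESeq2, 0 with limma, 9 with the replicate block and 2 at 2-fold. The rising variant gene became 2 without the filter, with total counts or with the block and 0 with limma or at 2-fold, and the falling variant gene became 2 without the filter and 0 with total counts, limma, the block, all 9 samples or at 2-fold. With a sample left out, replication-dependent genes numbered 0 to 4 rising (0 without Ad-GFP replicate 3 or Ad-hHIF2 replicate 3, and 4 without Ad-hHIF2 replicate 1) and 3 to 7 falling (3 without Ad-hHIF2 replicate 1 or 3, and 7 without Ad-GFP replicate 3), and variant genes 1 to 1 rising and 0 to 2 falling. Between Ad-hHIF1 and Ad-GFP the counts of 0 became 1 rising and 2 falling replication-dependent genes without the filter. Between the HIFs, 0 higher replication-dependent genes became 4 without the filter and 1 with total counts, and 3 lower ones became 9 without the filter, 1 with total counts, 6 with DESeq2, 0 with limma, 5 in the 6 HIF samples alone and 1 at 2-fold. The higher variant gene became 2 without the filter, with total counts or in the 6 HIF samples and 0 with limma or at 2-fold, and the lower one became 0 with total counts, limma or the block and 2 with DESeq2. With a sample left out these counts were 0 to 1, 1 to 4 (1 without Ad-hHIF1 replicate 1), 1 to 2 and 0 to 2. The causes were not tested. Over all genes, limma on log2(TPM + 1) called 3, 2 and 150 genes in the 3 comparisons, against 4416, 0 and 3999 with edgeR and 4629, 145 and 4498 with DESeq2.

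The log2 ratio of the replication-dependent sum in Ad-hHIF2 against Ad-GFP, -0.15, was 0.09 with total counts and 0.28 with summed TPM. That of the variant sum, 0.30, was 0.55, 0.85 and, over members with whole counts, 0.00. In Ad-hHIF1 against Ad-GFP the replication-dependent ratio of -0.11 was 0.10 with TPM and -0.39 over members with whole counts. Between the HIFs it was 0.18 with TPM, and the variant ratio of 0.32 was 0.49 with total counts, 0.70 with TPM and 0.09 over members with whole counts. With a sample left out, the replication-dependent ratios ran from -0.24 to -0.04, -0.18 to -0.02 and -0.13 to 0.07 in the 3 comparisons and the variant ratios from 0.15 to 0.39, -0.17 to 0.07 and 0.24 to 0.36. With 100-base windows, the shared median was 37.1% for replication-dependent and 1.0% for variant genes. Hist1h2bc at 0.01 (adjusted p = 0.99) and Nasp at 0.02 (adjusted p = 0.918) changed sign with limma on log2(TPM + 1). Same-numbered samples of Ad-hHIF2 and Ad-GFP deviated together at correlations of 0.082 to 0.249 (mean 0.144), and different-numbered ones at -0.25 to 0.167 (mean -0.072). Same-numbered samples were at -0.147 to 0.185 for Ad-hHIF1 and Ad-GFP and at -0.271 to -0.104 for both HIFs. Their means were 0.036 and -0.168, against -0.012 and 0.085 for different numbers. The replicate numbers were not taken as pairs in the main fits, and these values do not settle whether they are. The block moved all calls from 4416 to 4630 and from 3999 to 3634. Members under 10 counts in every sample, 9 of 82, were beyond what this depth can compare.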
